A study of Drosophila melanogaster with 4 samples.

Results

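The 10 genes described here encode nucleolar proteins and factors of ribosome production: Fib, Nop56, Nop60B, NHP2, Nopp140, Non1, Ns1, Ns2, bys and Tif-IA. They were listed by FlyBase symbol with earlier results of these data known, and all 10 were found among the 17697 genes measured. The study asked which genes the rRNA gene clusters contact in Drosophila S2 cells. It used heat shock to see whether these contacts, and the expression of the contacted genes, change. S2 is 1 cultured line of wild type genotype derived from late embryos. RNA was sequenced from 2 libraries of cells held for 1 h at 37 °C and then for 1 h at 27 °C (heat shock), and from 2 libraries of cells under no stress (untreated). All cells had been grown at 27 °C in DMEM with 10% FBS, and poly(A) RNA was read in 50-base reads. The heat shock cultures were lysed separately, whereas this is not stated for the untreated ones. The p-values therefore measure the spread between these libraries, which may be technical.

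The nucleolus forms around the tandem rRNA genes. RNA polymerase I copies them into a precursor that small nucleolar ribonucleoproteins (snoRNPs) modify, that processing factors cut, and that assembly factors join with ribosomal proteins into the small and the large subunit. Ribosome production takes up much of the transcription of growing cells, and nucleoli of fly and mammalian cells are known to change in structure under heat stress.

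Totals of estimated counts were 11988483 and 10602190 in the heat shock libraries, against 10221418 and 10354706 in the untreated libraries. The 6 Hsp70 gene copies, which code for the major heat-inducible chaperone, took 12.9% and 14.3% of all counts after heat shock, against 0.0671% and 0.0699% in untreated cells. Because so large a share went to these copies, values below are CPM, counts scaled to a common library size after totals were adjusted by edgeR's TMM factors. These factors were 0.837 and 0.825 for heat shock, against 1.22 and 1.18 for untreated cells. CPM compares libraries only relative to the rest of the RNA, and less RNA per cell cannot be told apart from fewer cells that carry it. The levels of 7 S2 and plasmatocyte markers summed to 116.6 and 108 TPM (a length-corrected share of all transcripts, not adjusted by TMM) after heat shock, against 159.8 and 164 TPM in untreated cells, while Hml, NimC1 and Sr-CI stayed at or below 0.32 TPM in all 4 libraries. Their members went opposite ways in the TMM-scaled edgeR fit, with srp (log2 fold change 0.37) and vkg (0.29) higher after heat shock and Ppn lower (-1.60, adjusted p = 2.67e-07). Of 4 neuron markers, which summed to 25.4 and 26.9 TPM after heat shock, against 29.3 and 32.7 TPM in untreated cells, nSyb (3.27) and brp (0.59) were higher in that fit and elav, nearly all of the sum, was not called (0.19). Of 3 germline markers, which summed to 48.8 TPM in each heat shock library, against 79.6 and 72.9 TPM in untreated cells, none was called, with aub, most of the sum, at -0.17 and vas at or below 0.30 TPM. Muscle markers summed to at most 1.52 TPM, with Mlp84B higher (2.11). The part of these markers in the results was not tested.

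Of the 10 factors, 6 fell after heat shock, namely Nop56, NHP2, Nopp140, Ns1, Ns2 and bys. Non1 rose, and Fib, Nop60B and Tif-IA did not pass the threshold, an adjusted p-value of 0.05 in edgeR's quasi-likelihood test over 8784 genes. Over all genes tested, 18.9% were lower and 21.6% were higher (40.5% changed). Of all calls, 53.3% were higher with TMM, 28.6% with totals that leave out the heat shock genes and 11.02% with total counts alone. With totals that leave out the heat shock genes, 8 factors were lower and none higher, where 38.2% of all genes tested were lower and 15.3% higher (53.6% changed). With total counts alone all 10 were lower, where 71.6% of all genes tested were lower and 8.87% higher (80.5% changed). At an adjusted p of 0.01 with TMM, 3 factors (Nop56, Ns1 and Ns2) were lower and none higher, against 9.16% and 14.6% of all genes tested. The median log2 fold change (heat shock over untreated) was -0.29 over the 10 factors and -0.02 over all genes tested. Both heat shock libraries lay below both untreated libraries for 8 of the 10 factors, against 37.8% of all genes tested. They lay above for 1 factor, Non1, against 34.4% of all genes tested. Only Fib had overlapping groups. Among 4729 genes within the range of levels of the 9 factors other than Non1, 26.6% were lower and 13.3% were higher, with a median log2 fold change of -0.10.

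**Figure D1:**
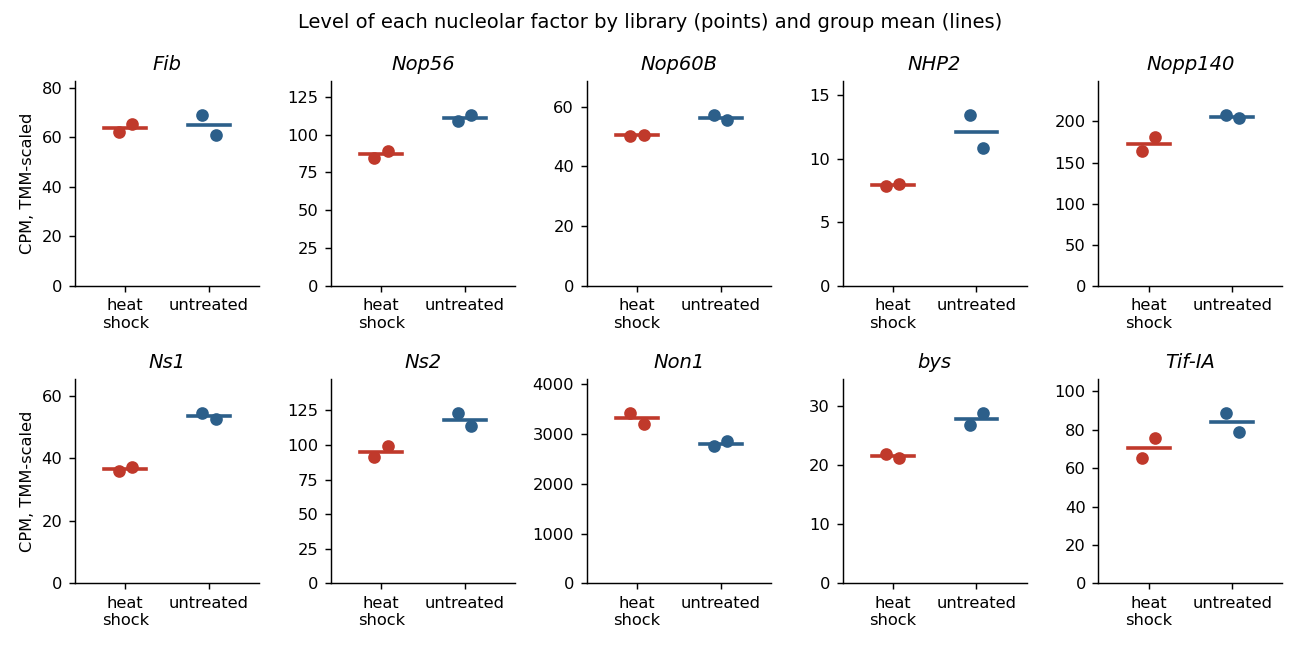
CPM (TMM-scaled, linear axes from 0) of the 10 factors in each of the 2 heat shock libraries (left in each panel) and the 2 untreated libraries (right), with lines at the group means. The heat shock points lie below the untreated points for 8 genes, above them for Non1, and among them for Fib.

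Fib and Nop56 belong to the box C/D snoRNPs, which place 2′-O-methyl groups on rRNA. Fib (2R, 23072909 to 23074725, minus strand) codes for fibrillarin, the methyltransferase itself. It stood at 61.96 and 65.16 CPM after heat shock, against 68.92 and 60.82 CPM in untreated cells. The untreated libraries lay on either side of the heat shock libraries. The log2 fold change was -0.03 ± 0.08 (SE, n = 2 each, edgeR adjusted p = 0.784).

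Nop56 (3R, 22419095 to 22421068, minus strand) codes for a scaffold protein of the same particle. Its level was 84.51 and 89.44 CPM in heat shock libraries, against 109.34 and 112.91 CPM in untreated libraries. Both heat shock values were below both untreated ones, with a gap wider than the spread within either group. The log2 fold change was -0.35 ± 0.07 (SE, edgeR adjusted p = 0.0032). As counts within a library, which no scaling changes, Nop56 had 1.36 and 1.37 counts for each count of Fib after heat shock, against 1.59 and 1.86 in untreated cells.

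Nop60B and NHP2 belong to the box H/ACA snoRNPs, which convert uridines of rRNA to pseudouridine. Nop60B (2R, 24174877 to 24186343, plus strand) codes for the fly dyskerin, the pseudouridine synthase. Its CPM was 50.19 and 50.51 after heat shock, against 57.15 and 55.44 in untreated cells. The groups did not overlap, but the log2 fold change of -0.16 ± 0.07 (SE) did not pass the threshold (edgeR adjusted p = 0.0967). The gene holds 7 annotated snoRNA genes, and none of these had more than 3 estimated counts in a library.

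NHP2 (3L, 14801328 to 14802168, minus strand), which codes for a small RNA-binding core protein of the H/ACA particle, was the least abundant factor by counts. It had 79 and 70 estimated counts, or 7.88 and 8.02 CPM, after heat shock, against 168 and 133 counts, or 13.45 and 10.86 CPM, in untreated cells. The untreated libraries were apart from each other, yet both were above the heat shock libraries. The log2 fold change of -0.61 ± 0.15 (SE, edgeR adjusted p = 0.0116) was the lowest of the 10, with the largest error. The call rested on untreated replicate 1: without it the value was -0.46 (adjusted p = 0.0636). DESeq2 did not call it either (adjusted p = 0.146).

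Nopp140 (3L, 21832774 to 21836685, plus strand) codes for a nucleolar phosphoprotein that binds and escorts snoRNPs. It stood at 163.53 and 181.64 CPM after heat shock, against 207.72 and 203.70 CPM in untreated cells. The lower of the untreated values was above the higher heat shock value. Its log2 fold change was -0.25 ± 0.07 (SE, edgeR adjusted p = 0.016). Without heat shock replicate 1 the value was -0.18 and no longer called (adjusted p = 0.129). Its last 21 exonic bases overlap P5CDh1 on the opposite strand, a gene with 2114 and 1762 estimated counts after heat shock, against 2362 and 2456 in untreated cells.

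Ns1, Ns2 and Non1 code for GTPases that act in the making of the large subunit. Ns1 (3R, 17070523 to 17072675, minus strand), a nucleostemin, had 36.02 and 37.34 CPM after heat shock, against 54.59 and 52.66 CPM in untreated cells. The replicates of each group were close to each other and the groups far apart. The log2 fold change of -0.55 ± 0.08 (SE) had the smallest adjusted p-value of the 10 factors (edgeR, 0.000564).

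Ns2 (2R, 17565779 to 17568456, minus strand), the fly counterpart of yeast Nog2, had 90.99 and 99.06 CPM after heat shock, against 123.19 and 113.40 CPM in untreated cells. The groups were apart, with a log2 fold change of -0.32 ± 0.07 (SE, edgeR adjusted p = 0.0088). It overlaps CG14480 by 74 exonic bases on the opposite strand. CG14480 had 265 and 256 estimated counts after heat shock, against 369 and 388 in untreated cells.

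Non1 (2R, 9396265 to 9398734, minus strand), the fly counterpart of yeast Nog1, stood apart in level and in direction. It was at 3419.16 and 3195.24 CPM after heat shock, against 2746.30 and 2855.09 CPM in untreated cells. Both heat shock libraries were above both untreated ones, with a log2 fold change of 0.24 ± 0.08 (SE, edgeR adjusted p = 0.0303). This direction rested on the scaling. With total counts alone the value was -0.29 (adjusted p = 0.000817), and with totals that leave out the heat shock genes it was 0.07 (adjusted p = 0.347). The call was also lost without heat shock replicate 1 (0.19, adjusted p = 0.33) and without heat shock replicate 2 (0.28, adjusted p = 0.121). Under TMM and both other scalings its log2 fold change was above the median of all genes tested, which was -0.02 with TMM, -0.56 with total counts and -0.19 without the heat shock genes.

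**Figure D2:**
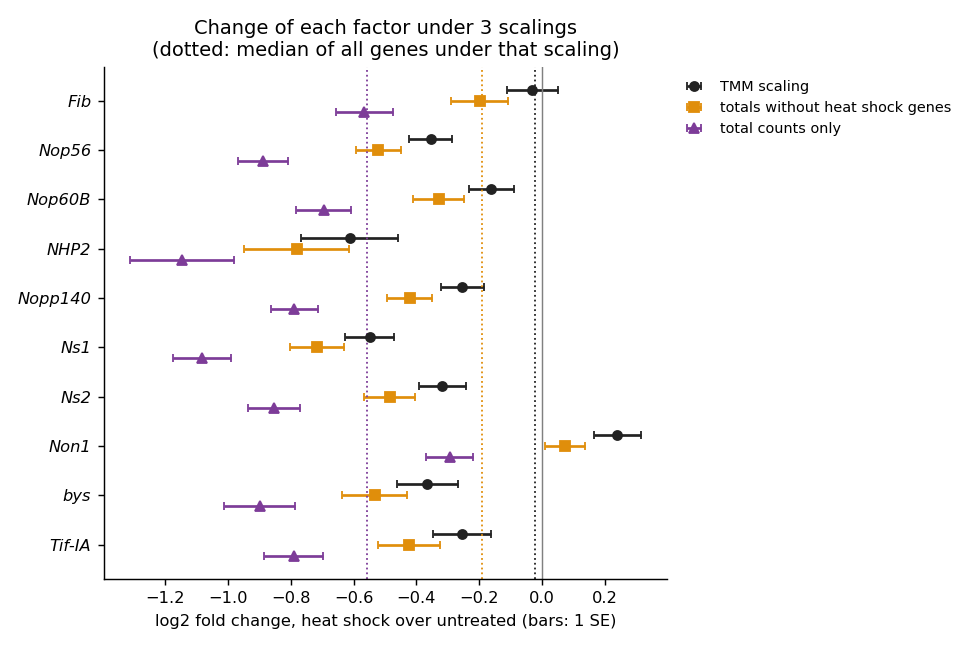
Log2 fold change (heat shock over untreated) with 1 SE for each factor under TMM scaling, library totals without the heat shock genes and total counts alone, with dotted lines at the median of all genes under each scaling. All factors shift together between scalings, and Non1 has values of 0.24, 0.07 and -0.29.

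bys (X, 7901880 to 7903643, plus strand) codes for bystin, which acts in the making of the small subunit. It had 21.95 and 21.30 CPM after heat shock, against 26.90 and 28.90 CPM in untreated cells. The groups did not overlap, with a log2 fold change of -0.37 ± 0.10 (SE, edgeR adjusted p = 0.015). DESeq2 did not call it (adjusted p = 0.176).

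Tif-IA (2L, 22249876 to 22258260, plus strand) codes for the initiation factor that makes RNA polymerase I competent to start transcription, the counterpart of yeast Rrn3. It had 65.25 and 75.59 CPM after heat shock, against 88.85 and 78.95 CPM in untreated cells. The groups did not overlap, but the replicates of each differed by more than the gap between the groups. The log2 fold change of -0.26 ± 0.09 (SE) lay just outside the threshold (edgeR adjusted p = 0.0501). The value was further from 0 without untreated replicate 2 (-0.34) and without heat shock replicate 2 (-0.37). It was nearer to 0 without untreated replicate 1 (-0.17) and without heat shock replicate 1 (-0.15).

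Levels between the factors were compared in TPM, which corrects for length but not for the share taken by Hsp70. Non1 was at 2278 ± 122 TPM after heat shock and 2762 ± 18.1 TPM in untreated cells (SD, n = 2 each). By TPM it ranked 69 and 77 among all genes in the heat shock libraries, against 63 and 59 in the untreated libraries. It exceeded the next factor, Nopp140, 26.4-fold after heat shock and 18.8-fold in untreated cells. Nopp140 stood at 86.2 ± 6.23 TPM after heat shock and 147 ± 7.02 TPM in untreated cells, followed by Nop56 with 75.3 ± 2.61 TPM after heat shock and 138 ± 0.247 TPM in untreated cells. The lowest were bys, with 21.6 ± 0.580 TPM after heat shock and 39.9 ± 1.20 TPM in untreated cells, and NHP2, with 18.8 ± 0.290 TPM after heat shock and 41.0 ± 6.50 TPM in untreated cells. After heat shock, Nop56 and Fib overlapped between libraries and all other neighbours in the order were apart. In untreated cells Ns2 and Fib overlapped, as did NHP2 and bys.

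Besides the factors above, 4 proteins that belong to box C/D and H/ACA particles or act in their assembly were measured. Of these 4, 1 was lower with TMM, an assembly factor, and none was higher. Among all genes tested 18.9% were lower and 21.6% were higher. With 1 call among 4 genes, the list cannot be told apart from all genes, nor assembly factors from core proteins. CG10341, the fly counterpart of the H/ACA assembly factor NAF1, had 21.35 and 20.84 CPM after heat shock, against 32.82 and 35.52 CPM in untreated cells, a log2 fold change of -0.69 ± 0.10 (SE, edgeR adjusted p = 0.000492). The C/D core protein nop5 had -0.18, Gar1 -0.11 and Nop10 0.03, and none of the 3 passed the threshold. The replicates of Nop10 differed widely, with 77.82 and 55.66 CPM after heat shock, against 55.15 and 76.01 CPM in untreated cells.

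Of 11 genes of the polymerase I machinery, 5 fell (45.5%) and none rose, against 18.9% lower and 21.6% higher among all genes tested. The 2 catalytic subunits fell: Polr1B had 50.59 and 56.92 CPM after heat shock, against 88.29 and 89.97 CPM in untreated cells (log2 fold change -0.73), and Polr1A had 66.45 and 71.92 CPM after heat shock, against 96.62 and 86.95 CPM in untreated cells (-0.41). Polr1C (-0.66), Polr1E (-0.29) and the promoter factor subunit TAF1B (-0.32) also fell. Polr1C had few estimated counts, with 42 and 42 after heat shock, against 84 and 91 in untreated cells. Polr1D (-0.18), Polr1F (-0.11), Polr1H (-0.41), udd (-0.07), TAF1C-like (0.05) and nclb (-0.01) did not pass the threshold. The median of the 11 was -0.29 with TMM. With totals that leave out the heat shock genes 5 of the 11 were also lower, where 38.2% of all genes tested were lower. With total counts alone all 11 were lower, where 71.6% of all genes tested were lower. The 17 annotated genes of the rRNA unit, whose RNA remains only in part after poly(A) selection, took 0.525% and 0.484% of counts after heat shock, against 0.315% and 0.355% in untreated cells. Their share is no measure of rRNA synthesis.

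Among assembly factors of the small subunit, 15 of 19 were lower (78.9%, against 18.9% of all genes tested) and none higher. Their median log2 fold change was -0.51 with TMM. Without the heat shock genes in the totals 16 were lower, against 38.2% of all genes tested. With total counts alone all 19 were lower, against 71.6% of all genes tested. The largest falls were in RIOK2, a kinase of late small-subunit maturation, and wcd, a component of the early small-subunit processome. RIOK2 had 12.07 and 14.32 CPM after heat shock, against 27.86 and 24.82 CPM in untreated cells (log2 fold change -1.003 ± 0.12, SE, edgeR adjusted p = 0.000271). For wcd the values were 12.27 and 10.31 CPM after heat shock, against 20.17 and 19.10 CPM in untreated cells (-0.79 ± 0.13, SE).

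Among assembly factors of the large subunit, 15 of 23 were lower (65.2%) and 2 higher (8.70%), with a median of -0.34. The shares of all genes tested were 18.9% lower and 21.6% higher. Without the heat shock genes in the totals 20 were lower and 1 higher, against 38.2% and 15.3% of all genes tested. With total counts alone all 23 were lower, against 71.6% of all genes tested. CG13185, the fly midasin, had 97.48 and 107.42 CPM after heat shock, against 176.74 and 161.33 CPM in untreated cells (-0.72 ± 0.08, SE). Nmd3, the export adaptor of the large subunit, had 21.85 and 22.33 CPM after heat shock, against 34.26 and 34.45 CPM in untreated cells (-0.64 ± 0.09, SE). The 2 that rose with TMM were RpL24-like, with 218.90 and 219.89 CPM after heat shock, against 166.10 and 173.00 CPM in untreated cells (0.37), and CG4364, the fly pescadillo, with 311.69 and 313.45 CPM after heat shock, against 274.72 and 274.49 CPM in untreated cells (0.19). Both rises rested on the scaling: without the heat shock genes in the totals the values were 0.20 for RpL24-like and 0.02 for CG4364, the second not called (adjusted p = 0.791), and with total counts alone they were -0.16 and -0.35, both called lower.

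Of 7 growth regulators 3 rose and 1 fell with TMM, and with total counts alone none was higher and 5 were lower. Among all genes tested 21.6% were higher and 18.9% lower with TMM, and 8.87% and 71.6% with total counts alone. Myc, the transcription factor that promotes ribosome production in flies, had 666.19 and 650.04 CPM after heat shock, against 395.91 and 426.10 CPM in untreated cells (log2 fold change 0.68 ± 0.06, SE, edgeR adjusted p = 5.47e-05). Thor, the translation inhibitor 4E-BP, had 183.19 and 158.27 CPM after heat shock, against 287.37 and 316.70 CPM in untreated cells (-0.82 ± 0.08, SE). The other two that rose, named after their values were seen, were Mnt (0.45) and S6k (0.27). Of 7 snoRNA host genes, whose introns carry snoRNAs, 1 rose and 1 fell with TMM. That was 14.3% each way, below the shares of all genes tested (21.6% higher and 18.9% lower). Uhg4, named after its values were seen, had 13.5 and 9.41 estimated counts after heat shock, against 47.0 and 32.6 in untreated cells (-1.45 ± 0.32, SE). Uhg5 had 42.00 and 39.63 CPM after heat shock, against 16.73 and 20.08 CPM in untreated cells (1.15 ± 0.11, SE).

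**Figure D3:**
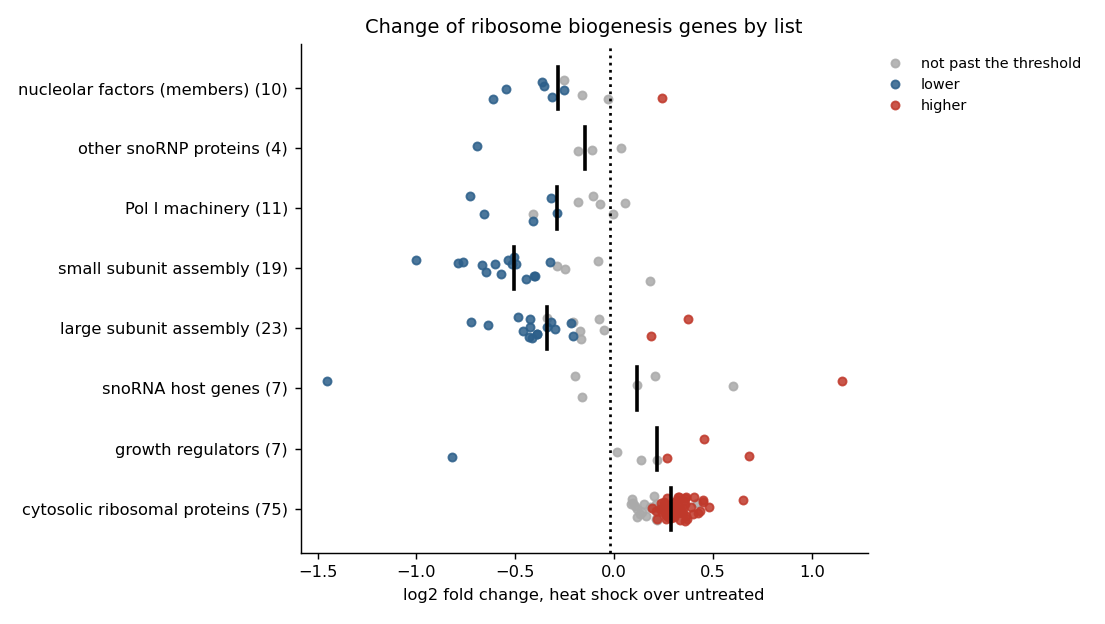
Log2 fold change (heat shock over untreated, TMM scaling) of every tested gene of each list, coloured by call, with black bars at list medians and a dotted line at the median of all genes tested. The factor and assembly lists lie mainly left of 0 and the 75 cytosolic ribosomal protein genes all lie right of it with TMM, whereas with total counts alone the ribosomal protein median is -0.25. The median of all genes tested is then -0.56.

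The cytosolic ribosomal protein genes, which code for the proteins of the finished ribosome, had the other sign under TMM scaling. Of 78 genes, 75 were tested, 56 were higher (74.7%) and none lower, against 21.6% higher and 18.9% lower among all genes tested. All 75 had a positive log2 fold change, with a median of 0.29, against 4169 positive of all 8784 genes tested. The sign rested on the scaling: the median was 0.12, with 22 higher and none lower, without the heat shock genes in the totals, and -0.25, with none higher and 64 lower, with total counts alone. The median of the 10 factors was below that of the ribosomal protein genes under each of these scalings, at -0.45 and -0.82. So was the median of all genes tested, at -0.19 and -0.56 (-0.02 with TMM). Without the heat shock genes in the totals 15.3% of all genes tested were higher and 38.2% lower. With total counts alone 8.87% were higher and 71.6% lower. A ratio within each library does not depend on scaling. For each 10000 counts of ribosomal protein genes, the 9 factors other than Non1 had 58.7 and 64.2 counts after heat shock, against 95.5 and 89.7 in untreated cells. The 57 genes of the 4 protein lists (snoRNP, polymerase I, small and large subunit) had 308 and 318 after heat shock, against 456 and 450 in untreated cells. The groups were apart in both sums. Non1 had 345 and 327 after heat shock, against 349.6 and 357 in untreated cells, a far smaller difference between groups. Non1 was set apart from the sum after its values were seen.

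**Figure D4:**
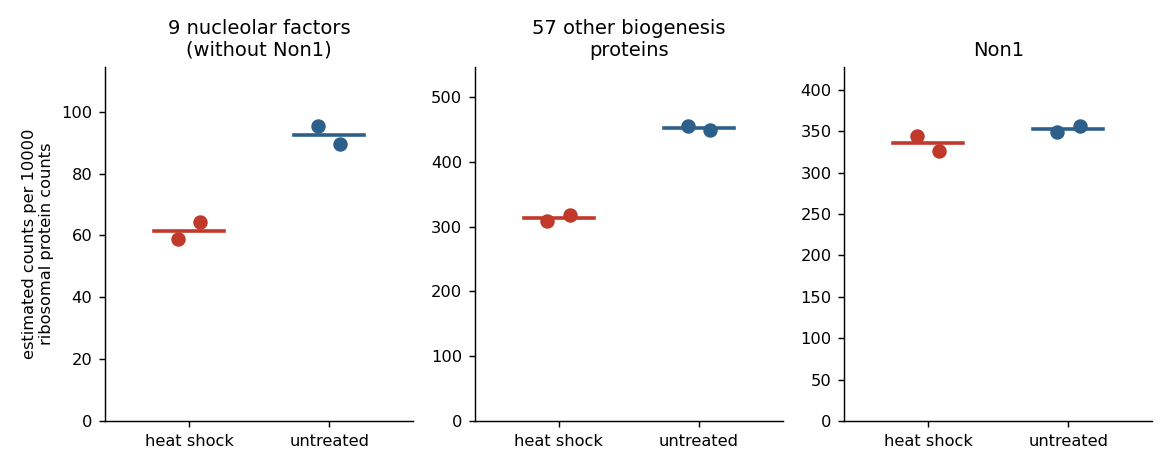
Estimated counts per 10000 ribosomal protein counts in each heat shock (left) and untreated (right) library, with lines at group means, for 9 factors, the 57 other ribosome biogenesis genes and Non1. The first 2 sums are lower in both heat shock libraries, at 58.7 and 64.2 against 95.5 and 89.7 for the 9 factors, while Non1 differs little.

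Direction and level went together in these genes. Across the 10 factors and the 57 genes of the protein lists, the log2 fold change had a Pearson correlation of 0.66 and a Spearman correlation of 0.58 with log2(TPM + 1) in untreated cells (0.63 and 0.56 without Non1). Across all 8784 genes tested the values were -0.34 and -0.16. That set also holds genes below the lowest of the listed genes, CG2875 at 9.6 TPM, so the correlations cover unlike ranges of level. The points are genes measured in the same 4 libraries, and untreated TPM enters the fold change. Below 50 TPM in untreated cells 23 of 31 genes were lower and none higher, and between 50 and 200 TPM 19 of 30 were lower and none higher. At 200 TPM or more none of 6 was lower and 3 were higher, namely Non1, RpL24-like and CG4364, each with a negative value when total counts alone were used. The median log2 fold change of the listed genes in these ranges was -0.43, -0.30 and 0.18. Over all genes tested it was -0.05, -0.04 and 0.17, so at 200 TPM or more the medians were close. Calls over all genes were not counted by range, and at all levels together 18.9% were lower and 21.6% higher. The counts by range therefore have no like share to be read against.

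**Figure D5:**
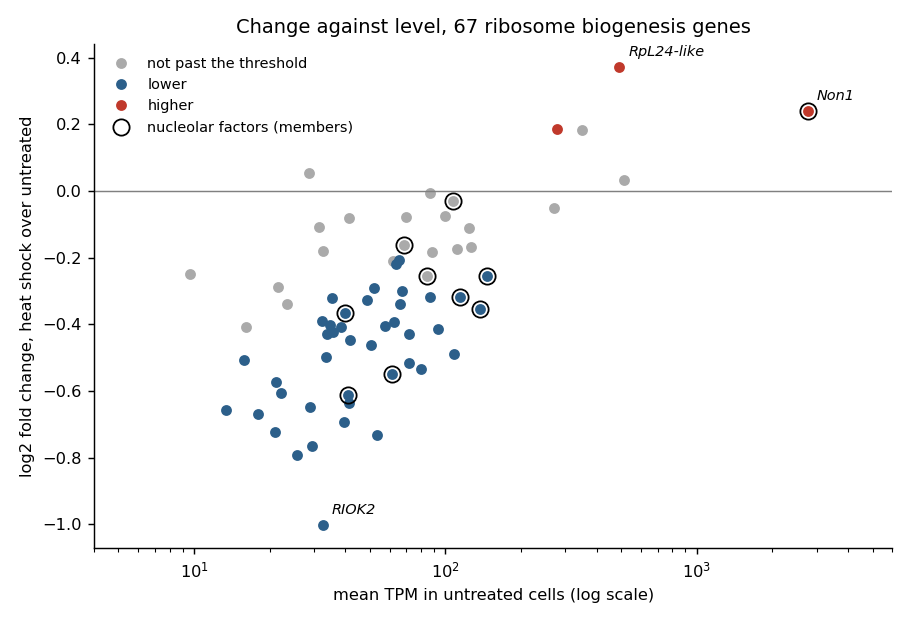
Log2 fold change (heat shock over untreated) against mean TPM in untreated cells (log axis) for 67 ribosome biogenesis genes, coloured by call, with rings around the 10 factors. All genes called lower lie below 200 TPM, and all 3 called higher, which is so with TMM and not with total counts alone, lie above it.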

How the data were processed

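Poly(A) RNA of S2 cells was sequenced in 2 heat shock and 2 untreated libraries, grouped by the stress in the labels. The submitters' processing notes name Trimmomatic 0.36, STAR 2.6.1c and RSEM 1.3.1 on dm6, whereas the study's methods name featureCounts and DESeq2. Use of strand is not given in the sources used here. The tables that the authors deposited give estimated counts (expected counts, which need not be whole) and TPM per gene. The posterior standard deviation of each member's count, deposited by the authors, was at most 0.87 reads. Pooled tables were not used.

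Estimated counts were rounded, filtered with filterByExpr, scaled with TMM and compared, heat shock over untreated, in edgeR 4.0.16 (R 4.3.3, robust glmQLFit and glmQLFTest) with Benjamini-Hochberg adjustment over all 8784 genes and a threshold of 0.05. The script was tested on simulated counts. Totals of 10221418 to 11988483 limit counting error only.

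The members and lists were chosen with earlier results of these data known. Of 60 genes named for the 4 protein lists, 57 matched. The text names all members, snoRNP and polymerase I genes, Myc and Thor, and in the assembly and snoRNA host lists up to 2 rises and 2 falls past the threshold with at least 10 CPM in a group. Coordinates are 1-based on dm6. Alternatives were other scalings, DESeq2 1.42.0, other filters, a threshold of 0.01, a replicate block and leaving out each library.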

Additional observations from a re-analysis of the deposited data

How the results depend on the processing

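Nop56, Nopp140, Ns1 and Ns2 were lower in all 7 alternatives fitted with every library at the threshold of 0.05, and Nopp140 was not called at 0.01. With total counts alone 0 members were higher and 10 lower, with a median log2 fold change of -0.82. Of the wider lists 1 gene was higher and 65 lower (6 and 38 with TMM), and of all genes 7067 were called, 779 higher and 6288 lower. Non1 turned to -0.29 there. Without the heat shock genes in the totals 0 members were higher, the median was -0.45 and 3359 genes were lower, against 1659 with TMM. DESeq2 gave an adjusted p to 10416 genes and none to 3881. It called 1824 genes, 1221 higher and 603 lower, with 22 of the 71 genes of the wider lists lower. Of the members 1 was higher and 4 lower there, with NHP2 and bys no longer called. At an adjusted p of 0.01, 0 members were higher and 3 lower, and 2084 genes were called, 805 of them lower. Leaving out a library gave a median over the members of -0.36 to -0.22. Fib then ranged from -0.12 to 0.055, being 0.055 without untreated replicate 1 and 0.0037 without heat shock replicate 1. The cause of these shifts was not tested.

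Libraries with the same replicate number did not deviate together (correlation -0.10 over genes tested and -0.34 over 5735 genes of at least 10 CPM), so the numbers are not taken as pairs. With the replicate block 3272 genes were called, 0 members were higher (Non1, adjusted p = 0.116), Tif-IA was called lower (adjusted p = 0.0392) and the median was -0.29. The crossed pairing, chosen after seeing the data, called 4639 of 8784 genes, 2324 higher and 2315 lower, with 1 member higher and 8 lower. Groups of 2 libraries limit every comparison, and among the members NHP2 had the fewest counts, with 70 in its lowest library.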
